A study of Mus musculus with 10 samples.

Results

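Autophagy encloses cytoplasm, damaged organelles and protein aggregates in a double membrane that fuses with the lysosome, where acid hydrolases break the content down. The ULK1 complex and the class III phosphatidylinositol 3-kinase complex start the membrane, a conjugation system attaches ATG8-family proteins (LC3 and GABARAP proteins) to it, and cargo receptors link the load to those proteins. The transcription factors TFEB and TFE3 drive many lysosomal and autophagy genes, and hematopoietic stem cells (HSCs), which sustain blood formation for life, are known to depend on autophagy for their maintenance. The 43 genes described here were taken from a fixed list of this machinery by gene symbol, and all 43 were found among the 20270 genes of the deposited table. By role they comprised 10 lysosomal hydrolases and cofactors, 6 lysosomal membrane and transport proteins, 2 transcription factors, 6 initiation genes, 8 genes of membrane elongation and ATG8 conjugation, 5 ATG8-family genes and 6 cargo receptors. The rule used gene symbols and no measured level, although it was written with earlier results of these data known.

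RNA sequencing covered 10 libraries of sorted HSCs from C57BL/6 mouse bone marrow. All groups came from mice transplanted with lineage-depleted marrow cells, so transplantation was common to every library and no untransplanted control was analysed here. WT-labelled libraries had Id1+/+ and KO-labelled libraries Id1-/- donor marrow, with 3 normal and 2 stressed libraries of each genotype. The labels do not define normal and stressed, give 4 weeks after transplantation where the design text gives 6 weeks, and state neither the age of the mice nor the sort markers nor how host HSCs were kept out. Because the labels do not say that replicates came from separate animals, p-values measure only the spread between these libraries.

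Estimated depth was 25700000 to 33000000 reads per library, and the lowest member value, that of Wipi1, still rested on about 168 reads. Id1 itself, an inhibitor of E protein transcription factors, was higher in the libraries labelled KO, at a log2 level (log2 of CPM, the read count scaled to library size) of 3.08 to 3.72 against 0.36 to 2.13 in those labelled WT. The labels are therefore used here as names only, and any direction of KO against WT is drawn from a label that the Id1 transcript goes against. All 16 listed HSC markers were detected in every library, with a summed level of 4320 to 6070 CPM. On principal components, KO-labelled normal library A (-100 on the third) and WT-labelled stressed library A (-83 on the second) stood apart, and results were also computed without both.

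Autophagy and lysosome transcripts were abundant in these cells. Per kilobase of exon, the members had a median level of 4.31 (log2 CPM per kb) against 2.69 over all 15143 genes tested, and 39 of 43 members lay above the latter. The highest were Laptm4a, a small transmembrane protein of late endosomes and lysosomes, at 165 CPM per kb and Psap, the precursor of the saposins that activate sphingolipid hydrolases, at 155 CPM per kb. Lamp1, a main glycoprotein of the lysosomal membrane, followed at 101 CPM per kb. At the low end stood the phosphoinositide-binding protein gene Wipi1 at 1.91, the cholesterol transporter Npc1 at 2.63, Tfeb at 3.41 and Tfe3 at 4.30 CPM per kb. Both transcription factors thus had lower transcript levels than every hydrolase on the list.

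Among proteases, Ctsd (cathepsin D, the main aspartic protease) stood at 83.2 and Ctsz at 75.2 CPM per kb, well over Ctss at 9.21 and Ctsl at 8.39. The glycosidase genes Hexa and Gaa were at 79.1 and 59.3 CPM per kb. In the ATG8 family the order was Gabarapl1 at 94.8, Gabarap at 73.3, Map1lc3b at 44.4, Gabarapl2 at 19.8 and Map1lc3a at 11.2 CPM per kb. Map1lc3b therefore lay next to Ctsb in the order of all members, while the LC3 gene Map1lc3a was among the lower members. Among cargo receptors, Sqstm1 (p62) was highest at 76.0 and Optn lowest at 9.59 CPM per kb. Exonic length was the union of all annotated exons, so genes with long rare isoforms are understated on this scale.

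**Figure D1:**
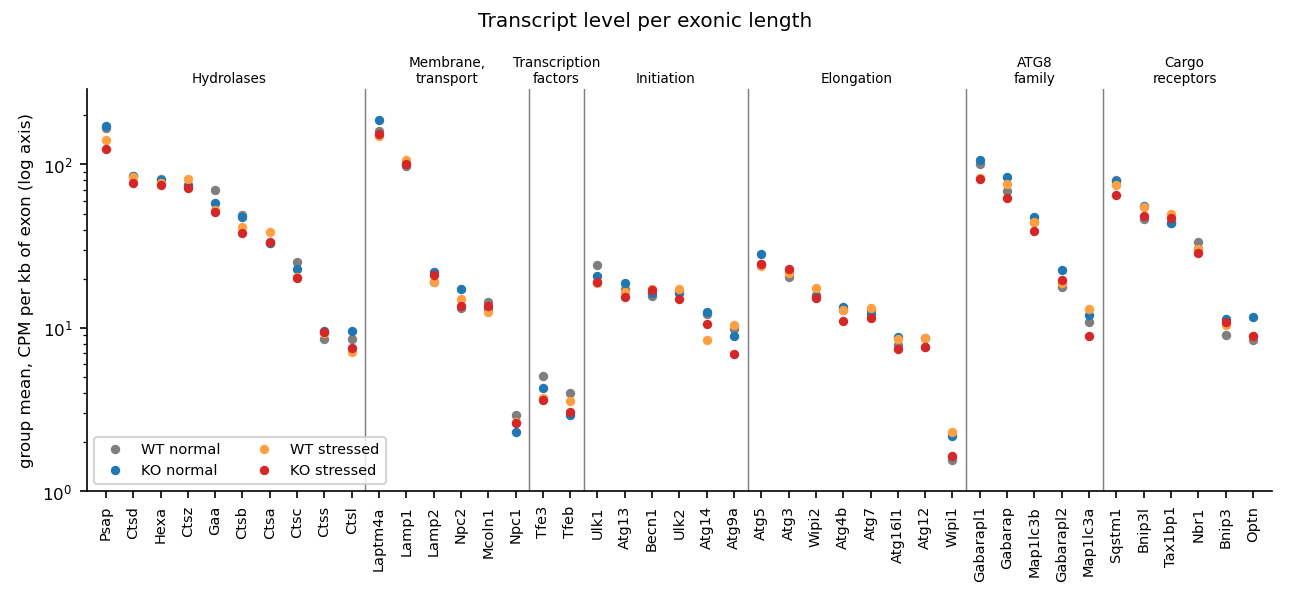
Mean level of each of the 43 members in each of the 4 groups (vertical axis, CPM per kb of exon, log scale), ordered by role and then by level; points are group means without error bars. Laptm4a and Psap reach over 100 CPM per kb in all 4 groups, whereas Npc1, Tfe3, Tfeb and Wipi1 lie under 10.

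Replicates of the members were tight. Their median within-group SD was 0.11 on the log2 scale, against 0.22 over all genes tested. The members were also more abundant, with a median log2 CPM of 6.7 against 4.82, and the SDs were not compared at like level. Becn1, a subunit of the class III kinase complex, and the cargo receptor Tax1bp1 varied least (SD 0.04 each). Ctss, a cysteine protease best known from antigen-presenting cells, varied most (SD 0.55), from 2.56 in KO-labelled normal library C to 4.34 in KO-labelled normal library A. Ctss differed by -0.01 to 0.12 between groups (SE 0.36 to 0.44), and at that spread only a large difference would have been detectable.

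Lysosomal and autophagy genes under TFEB and TFE3 typically carry an E-box in their promoters, and promoter windows were searched for it. A sequence match does not show which factor binds it, and binding was not tested. Of the 43 members, 36 had a window (250 bases before to 50 after the transcript start) in the RefSeq table of build GRCm38.p6. The 6-base E-box CACGTG, searched on both strands and identical on both, was present in 11 of these 36 genes (30.6%), against 11.6% of the genes tested and 8.09% of all genes with a window. It occurred in 6 of 16 lysosomal and 5 of 20 autophagy genes. The 8-base palindrome TCACGTGA, which contains the former, was present in 4 members (11.1%), namely Ctsa, Ctsd, Mcoln1 and Atg3, against 2.17% of genes tested and 1.12% of all. The exact 7-base sequence GTAAACA, a form of the forkhead motif, was in 0 of 36 member windows, against 3.14% of genes tested, on either strand. Other forms of that motif were not searched for, so these windows are not shown to lack forkhead sites. The median GC content was 59.3% in member windows and 60.3% in windows of genes tested.

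To show the difference, 5 windows are printed, each 150 bases read 5′ to 3′ on the gene's strand and ending just before the first start given by RefSeq or GENCODE vM21. Capitals mark CACGTG. Lamp1 had the most matches of any member, Atg3 (the enzyme that passes ATG8 proteins to lipid) holds the 8-base form, Gaa was the only member with an E-box among those that passed a test between conditions, and Psap and Gabarapl1 passed such tests without one.
Lamp1 (chr8:13159011-13159160, forward strand): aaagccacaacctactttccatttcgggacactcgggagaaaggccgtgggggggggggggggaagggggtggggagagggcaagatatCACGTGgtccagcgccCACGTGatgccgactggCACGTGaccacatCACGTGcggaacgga
Atg3 (chr16:45158635-45158784, forward strand): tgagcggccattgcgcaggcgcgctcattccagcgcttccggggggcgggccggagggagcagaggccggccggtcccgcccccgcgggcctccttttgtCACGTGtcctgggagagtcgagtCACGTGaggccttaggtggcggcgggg
Gaa (chr11:119267737-119267886, forward strand): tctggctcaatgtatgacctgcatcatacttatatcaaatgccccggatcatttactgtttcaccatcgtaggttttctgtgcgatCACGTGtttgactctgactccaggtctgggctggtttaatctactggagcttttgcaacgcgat
Psap (chr10:60277477-60277626, forward strand): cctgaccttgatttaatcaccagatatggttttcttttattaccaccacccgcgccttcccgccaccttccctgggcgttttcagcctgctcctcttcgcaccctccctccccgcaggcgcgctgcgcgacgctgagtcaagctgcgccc
Gabarapl1 (chr6:129533010-129533159, forward strand): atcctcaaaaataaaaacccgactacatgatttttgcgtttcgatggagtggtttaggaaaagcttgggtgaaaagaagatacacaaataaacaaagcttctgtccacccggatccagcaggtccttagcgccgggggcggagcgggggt
The 4 matches of Lamp1 began at positions -61, -45, -28 and -15 from the RefSeq start, and that of Gaa at -140. Of the 8 members that passed such a test, Ctsb had no window in the table and the other 6 had no match in theirs.

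**Figure D2:**
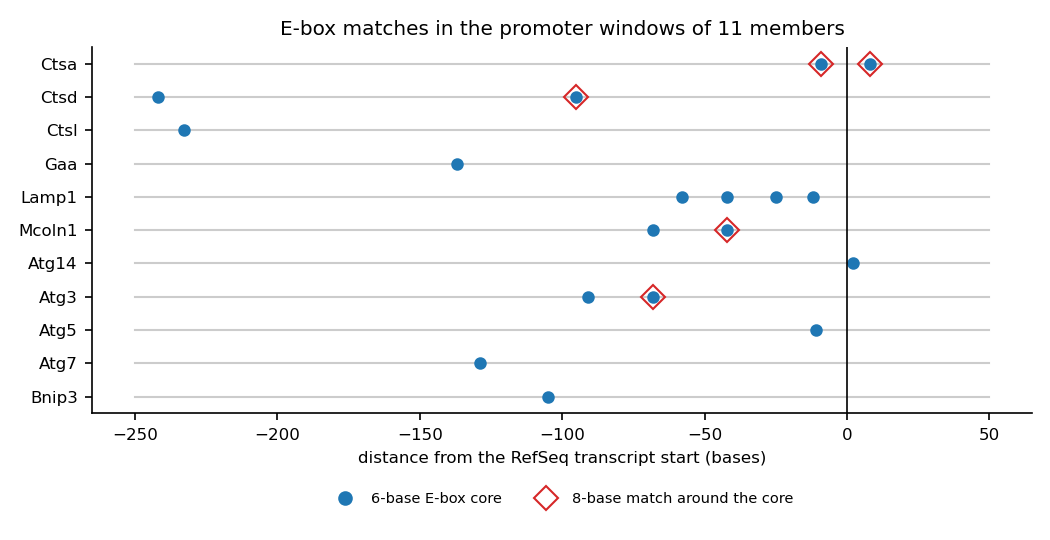
Position of each CACGTG match (blue points) and each TCACGTGA match (red diamonds) in the RefSeq promoter windows of the 11 members that hold one; the horizontal axis is the distance in bases from the transcript start, shown as a vertical line. Lamp1 has 4 matches close to the start, and Ctsl, Gaa, Atg7 and Bnip3 have a single one further upstream, that of Ctsl the most distant of them.

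Between conditions, 8 members passed the test in at least 1 comparison, 7 of them lower and 1 higher in the stressed libraries. The share of all genes that passed in at least 1 of these comparisons was not computed, so only the counts per comparison below have one beside them. Lower were the hydrolase genes Psap, Ctsb and Gaa, the membrane protein gene Laptm4a, the ULK1 kinase gene and the ATG8-family genes Gabarapl1 and Gabarap, and Tax1bp1 was higher. The largest of these differences was in Psap, which fell by 27.4% in KO-labelled libraries. In KO-labelled libraries 5 of 43 members were called, all lower (11.6%, where 4.5% of all genes tested were called and 2.28% were called lower). In WT-labelled libraries 3 of 43 were called, 1 higher and 2 lower (6.98%, where 3.3% of all genes were called, 1.55% higher and 1.75% lower). Averaged over both genotypes 7 of 43 were called, 1 higher and 6 lower (16.3%, where 8.29% of all genes were called, 3.94% higher and 4.36% lower). The condition comparisons of WT-labelled and KO-labelled libraries share no library, and the average uses both. In bulk libraries, fewer cells of a type and less RNA per cell cannot be told apart.

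Psap (chr10:60277627-60302597, mm10, GENCODE vM21) is described first. Its log2 level was 8.91, 8.79 and 8.82 in the WT-labelled normal group (in the order A, B, C, as throughout), 8.94, 8.89 and 8.79 in KO-labelled normal libraries, 8.64 and 8.57 in WT-labelled stressed libraries, and 8.36 and 8.47 in KO-labelled stressed libraries. All 4 stressed libraries lay below all 6 normal ones, and the KO-labelled stressed pair was lowest. In KO-labelled libraries the stressed mean of 8.41 ± 0.08 (SD, n = 2) was lower than the normal mean of 8.87 ± 0.08 (SD, n = 3), with a log2 difference of -0.46 (SE 0.063, limma adjusted p = 0.0017). In WT-labelled libraries the difference was -0.24 (SE 0.063, limma adjusted p = 0.071), and over both genotypes it was -0.35 (SE 0.044, limma adjusted p = 0.00057). The calls of Psap in KO-labelled libraries and over both genotypes held in each of 22 and 21 alternative analyses.

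Ctsb (chr14:63122462-63145923), which encodes the lysosomal cysteine protease cathepsin B, stood at 8.23, 8.16 and 8.26 in WT-labelled normal, 8.22, 8.18 and 8.11 in KO-labelled normal, 8.04 and 7.90 in WT-labelled stressed, and 7.85 and 7.87 in KO-labelled stressed libraries. Again no stressed library reached a normal one. The difference was -0.31 in KO-labelled libraries (SE 0.065, limma adjusted p = 0.020), -0.25 in WT-labelled libraries (limma adjusted p = 0.070) and -0.28 over both genotypes (SE 0.046, limma adjusted p = 0.0033). Without KO-labelled stressed library A or B, the adjusted p in KO-labelled libraries was 0.13 and 0.12. The Ctsb exons overlap 774 exonic bases of Fdft1 on the opposite strand, and since the strandedness of counting is not given in the sources used here, reads of both cannot be told apart there.

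Gaa (chr11:119267887-119285454) encodes acid alpha-glucosidase, which degrades glycogen in the lysosome. It stood at 8.45, 8.43 and 8.28 in WT-labelled normal, 8.18, 8.01 and 8.19 in KO-labelled normal, 7.96 and 7.97 in WT-labelled stressed, and 7.93 and 7.95 in KO-labelled stressed libraries. The WT-labelled normal libraries were highest, the KO-labelled normal ones intermediate, and all stressed libraries lowest. Gaa fell by 25.4% in WT-labelled libraries, a difference of -0.42 (SE 0.073, limma adjusted p = 0.0099), while KO-labelled libraries showed -0.18 (SE 0.073, limma adjusted p = 0.22). Over both genotypes the difference was -0.30 (SE 0.052, limma adjusted p = 0.0042). Without WT-labelled stressed library A or B the adjusted p in WT-labelled libraries was 0.062 and 0.056.

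The other 7 hydrolases did not pass between conditions. Over both genotypes they ranged from Ctsl at -0.30 (SE 0.11, limma adjusted p = 0.13) to Ctsa, the protective protein of the sialidase and galactosidase complex, at 0.13 (limma adjusted p = 0.20). Ctsc, which activates granule serine proteases, came nearest at -0.25 (SE 0.072, limma adjusted p = 0.0547). Over both genotypes 3 of 10 hydrolases were thus called, all lower, where 8.29% of all genes were called and 4.36% were called lower. Ctsd, the most abundant protease per length, differed by -0.08 (SE 0.050).

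Of the 6 membrane and transport genes, Laptm4a (chr12:8921664-8938742) alone was called. It stood at 8.18, 8.10 and 8.18 in WT-labelled normal, 8.44, 8.28 and 8.38 in KO-labelled normal, 8.04 and 8.06 in WT-labelled stressed, and 8.12 and 8.07 in KO-labelled stressed libraries. The KO-labelled normal group was above all the others, and KO-labelled stressed library A lay just above WT-labelled normal library B. Laptm4a fell by 17.2% in KO-labelled libraries (-0.27, SE 0.063, limma adjusted p = 0.033) and fell by 12.3% over both genotypes (-0.19, SE 0.045, limma adjusted p = 0.023). Both calls depended on single libraries. The one in KO-labelled libraries was lost without WT-labelled normal A or C, KO-labelled normal A or C, or either KO-labelled stressed library (adjusted p = 0.0506 to 0.21). The call over both genotypes was lost without WT-labelled normal A or C or any stressed library (adjusted p = 0.0553 to 0.091). Lamp1, Lamp2, Npc1, Npc2 and the calcium channel gene Mcoln1 differed by -0.07 to 0.06 over both genotypes, an average that can hide opposite differences. Npc2 differed by 0.18 in WT-labelled (SE 0.098, limma adjusted p = 0.39) and -0.33 in KO-labelled libraries (SE 0.098, limma adjusted p = 0.098). Npc1 and Mcoln1 stood at -0.11 and -0.21 in WT-labelled and at 0.23 and 0.08 in KO-labelled libraries.

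Neither transcription factor gene was called. Tfe3 had group means of 5.56 ± 0.15 (SD, n = 3) in WT-labelled normal, 5.31 ± 0.20 (SD, n = 3) in KO-labelled normal, 5.10 ± 0.20 (SD, n = 2) in WT-labelled stressed and 5.07 ± 0.05 (SD, n = 2) in KO-labelled stressed libraries. Its difference over both genotypes was -0.35 (SE 0.11, limma adjusted p = 0.082). For Tfeb, whose replicates spread over an SD of 0.41, the difference was -0.02 (SE 0.22, limma adjusted p = 0.97).

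Among initiation genes, Ulk1 (chr5:110784488-110810097) encodes the kinase that starts autophagosome formation. It stood at 7.38, 7.20 and 7.33 in WT-labelled normal, 6.95, 7.21 and 7.04 in KO-labelled normal, 6.98 and 6.90 in WT-labelled stressed, and 6.94 and 6.95 in KO-labelled stressed libraries. The WT-labelled normal libraries were high, and KO-labelled normal library B alone reached them. Ulk1 was called only over both genotypes, where it fell by 15.4% (-0.24, SE 0.065, limma adjusted p = 0.044). That call held in 9 of 21 alternatives and was lost without WT-labelled normal A or C, KO-labelled normal B or C, or any stressed library (adjusted p = 0.066 to 0.13). The scaffold gene Becn1 differed by 0.09 (SE 0.055) and Atg14, its partner in autophagosome formation, by -0.36 (SE 0.17), neither passing the test.

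No elongation or conjugation gene was called between conditions. The 8 genes, among them the E1-like enzyme gene Atg7, the E2-like enzyme gene Atg3 and the protease gene Atg4b, differed by -0.13 to 0.10 over both genotypes. In WT-labelled libraries 7 of the 8 were above 0 (median 0.11, with 51.1% of all genes above 0). In KO-labelled libraries 7 of the 8 were below 0 (median -0.20, with 49.9% of all genes below 0). Over the whole list 35 of 43 members were below 0 there, with the same median of -0.20.

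The ATG8-family genes held 2 of the called members. Gabarapl1 (chr6:129533160-129542346) stood at 7.62, 7.64 and 7.73 in WT-labelled normal, 7.75, 7.66 and 7.79 in KO-labelled normal, 7.37 and 7.38 in WT-labelled stressed, and 7.40 and 7.32 in KO-labelled stressed libraries. All stressed libraries lay below all normal ones, with little separation by genotype. Gabarapl1 fell by 22.8% in KO-labelled libraries (-0.37, SE 0.071, limma adjusted p = 0.012) and fell by 18.3% in WT-labelled libraries (-0.29, SE 0.071, limma adjusted p = 0.0495). Over both genotypes the difference was -0.33 (SE 0.050, limma adjusted p = 0.0019), and this call held in each of 21 alternatives. The call in WT-labelled libraries held in only 8 of 22 and was lost without any WT-labelled library, KO-labelled normal C or either KO-labelled stressed library (adjusted p = 0.06 to 0.20). The one in KO-labelled libraries was lost without KO-labelled stressed A or B (adjusted p = 0.056 and 0.12). Gabarapl1 exons overlap 377 bases of 1700101I11Rik on the opposite strand, counted at a log2 level of 0.51 or less.

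Gabarap (chr11:69991143-69994951), which like Gabarapl1 belongs to the GABARAP branch, stood at 6.99, 6.94 and 7.01 in WT-labelled normal, 7.33, 7.09 and 7.35 in KO-labelled normal, 7.23 and 7.03 in WT-labelled stressed, and 6.86 and 6.83 in KO-labelled stressed libraries. Here the KO-labelled groups had the highest and the lowest mean. Gabarap fell by 24.7% in KO-labelled libraries (-0.41, SE 0.097, limma adjusted p = 0.037) and stood 0.15 higher (SE 0.097, limma adjusted p = 0.48) in WT-labelled ones. The call held in 11 of 22 alternatives and was lost without any WT-labelled normal library, KO-labelled normal A or C, or either KO-labelled stressed library (adjusted p = 0.058 to 0.20).

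The remaining ATG8 genes did not pass. Map1lc3b stood at 8.36, 8.39 and 8.41 in WT-labelled normal, 8.61, 8.38 and 8.43 in KO-labelled normal, 8.32 and 8.45 in WT-labelled stressed, and 8.23 and 8.19 in KO-labelled stressed libraries. The KO-labelled stressed pair was lowest, at a difference of -0.27 (SE 0.072, limma adjusted p = 0.069) from KO-labelled normal. Gabarapl2 stood at 5.52, 5.24 and 5.33 in WT-labelled normal, 5.73, 5.77 and 5.66 in KO-labelled normal, 5.56 and 5.33 in WT-labelled stressed, and 5.49 and 5.53 in KO-labelled stressed libraries, so that the KO-labelled normal libraries were highest. Both genes have near-identical copies in the genome, and how reads were shared among the copies is not given in the sources used here, so their counts are uncertain. Among the copies in the table the highest log2 level was 0.92 (Gm6055, a copy of Map1lc3b), and the Gabarapl2 copies Gm5829 and Gm6051 were not analysed here. In KO-labelled libraries all 5 ATG8 genes were below 0 between conditions (median -0.37), and in each the stressed libraries did not overlap the normal ones. Among all genes tested, 49.9% were below 0 and 33.1% showed no overlap in that comparison.

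Tax1bp1 (chr6:52713729-52766780), a ubiquitin-binding cargo receptor, was the only member called higher. It stood at 8.78, 8.76 and 8.77 in WT-labelled normal, 8.76, 8.72 and 8.83 in KO-labelled normal, 8.97 and 8.97 in WT-labelled stressed, and 8.86 and 8.90 in KO-labelled stressed libraries. All 4 stressed libraries lay above all 6 normal ones. Tax1bp1 rose by 14.6% in WT-labelled libraries (0.20, SE 0.048, limma adjusted p = 0.0495) and by 11.0% over both genotypes (0.15, SE 0.034, limma adjusted p = 0.018). In KO-labelled libraries the difference was 0.11 (SE 0.048, limma adjusted p = 0.28). The call in WT-labelled libraries held in 9 of 22 alternatives and was lost without any WT-labelled or any KO-labelled stressed library (adjusted p = 0.076 to 0.19), and the one over both genotypes was lost without any stressed library (adjusted p = 0.0502 to 0.078). The best-known receptor gene, Sqstm1, differed by -0.20 over both genotypes (SE 0.060, limma adjusted p = 0.067).

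**Figure D3:**
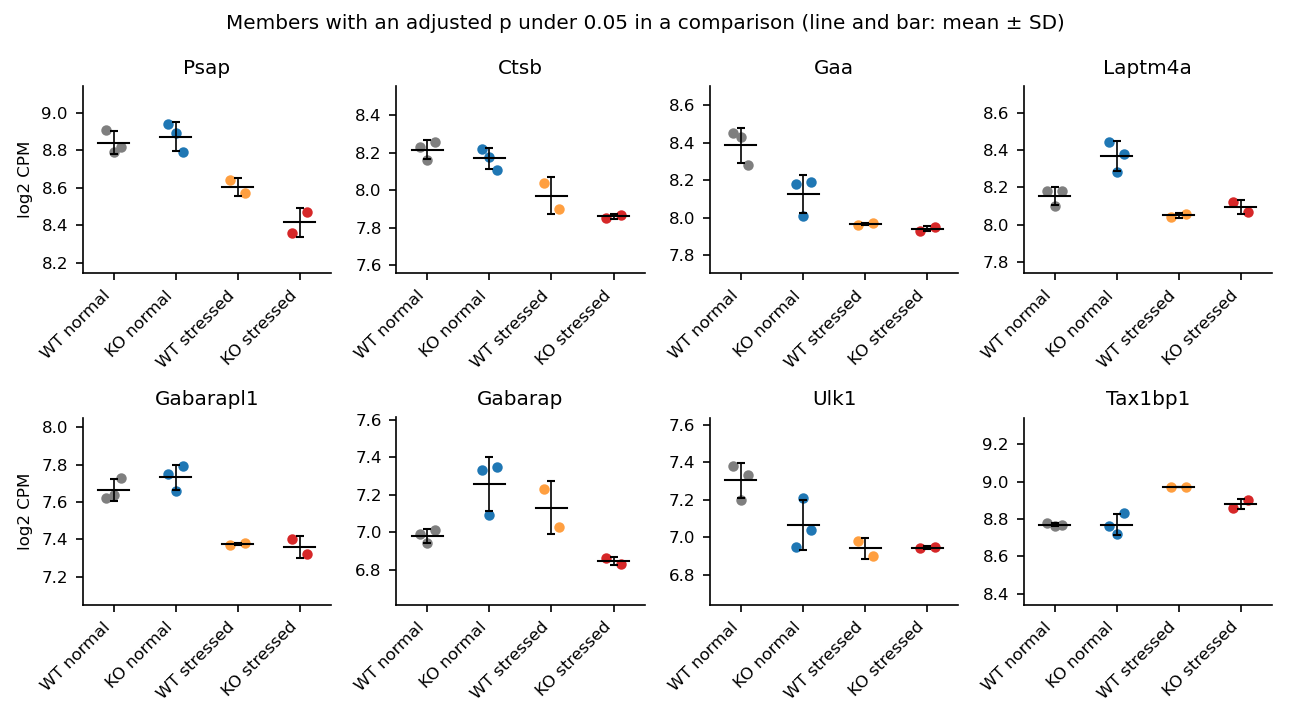
Log2 CPM of the 8 members with an adjusted p under 0.05 between conditions, in each library (points) by group, with the group mean (line) and SD (bar; n = 3 normal, n = 2 stressed); each panel has its own vertical range, which does not start at 0. In Psap, Ctsb, Gaa and Gabarapl1 all stressed points lie below all normal points, and in Tax1bp1 they lie above.

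The number of calls depended on single libraries. Between conditions in WT-labelled libraries it was 0 without WT-labelled stressed A or B and 1 without WT-labelled normal A or C or without KO-labelled stressed A or B. In KO-labelled libraries it was 1 without KO-labelled stressed A or B and 3 without WT-labelled normal A or C or KO-labelled normal A or C. Over both genotypes it was 4 without WT-labelled stressed B or KO-labelled stressed A. Without both libraries that stood apart it was 0 in WT-labelled and 3 in KO-labelled libraries, the latter being Ctsb, Gabarapl1 and Psap.

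Other transcripts differed between the same libraries. The 16 HSC markers summed to 5770 to 6070 CPM in WT-labelled normal and 4650 to 4800 CPM in WT-labelled stressed libraries, and to 4920 to 5280 and 4320 to 4390 CPM in the KO-labelled ones. Of these markers 5 were called lower in each genotype, and of the 6 megakaryocyte markers 3 (WT-labelled) and 4 (KO-labelled) were called higher, with sums of 781 to 918 CPM in normal and 1290 to 1380 CPM in stressed libraries. Markers of macrophages and monocytes, cells rich in lysosomes, summed to 292 to 381 CPM in normal and 299 to 367 CPM in stressed libraries, carried mostly by Lyz2, with 6 of 12 genes at 0 reads in some library. B and plasma cell markers summed to 203 and 205 CPM in KO-labelled stressed libraries and to 40.2 to 54.7 CPM elsewhere, through Igkc and Jchain. Erythroid markers summed to 200 to 235 CPM in normal and 111 to 174 CPM in stressed libraries, and granulocyte markers to 129 to 135 CPM in KO-labelled normal and 90.5 to 119 CPM in the other libraries. T and NK cell markers, of which 3 of 8 were in the table, summed to 61.3 to 68.5 CPM in normal and 98.1 to 123 CPM in stressed libraries. Among them Nkg7, a granule protein gene of cytotoxic cells, was called higher in WT-labelled (1.03, SE 0.099, limma adjusted p = 0.00028) and KO-labelled libraries (0.64, SE 0.099, limma adjusted p = 0.0039). The other 2, Cd4 and Klrb1c, were lower on average in the stressed libraries of both genotypes, so the higher sum came from Nkg7. Stromal and endothelial markers summed to 59.8 to 71.4 CPM in normal and 47.3 to 62.3 CPM in stressed libraries. The part of these differences in the member results was not tested.

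Between genotypes no member passed the test. In normal libraries 0 of 43 members were called by limma (1.56% of all genes tested were), and 11 had an unadjusted p under 0.05, 9 higher and 2 lower in KO-labelled libraries (13.9% of all genes did, 7.49% higher and 6.39% lower). In stressed libraries 0 of 43 were called (0.145% of all genes were), and 7 had an unadjusted p under 0.05, all lower in KO-labelled libraries (8.88% of all genes did, 4.46% lower). Averaged over conditions 0 of 43 were called (1.07% of all genes were), and 5 had an unadjusted p under 0.05 (13.1% of all genes did). The normal groups did not overlap in 9 members (20.9%, against 19.5% of all genes) and the stressed groups in 23 (53.5%, against 39.1%). These comparisons use the same libraries as those between conditions.

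The smallest p between genotypes in normal libraries belonged to Npc2, a soluble protein that hands cholesterol to NPC1 in the lysosome. It stood at 6.15, 6.15 and 6.21 in WT-labelled and 6.46, 6.52 and 6.68 in KO-labelled normal libraries, and at 6.30 and 6.40 in WT-labelled and 6.26 and 6.19 in KO-labelled stressed libraries. The normal groups did not overlap, and the stressed ones stood in reverse order. The difference was 0.38 (SE 0.088, limma adjusted p = 0.064) in normal and -0.13 (SE 0.11, limma adjusted p = 0.78) in stressed libraries. Gaa differed by -0.26 (SE 0.065, limma adjusted p = 0.083) and Laptm4a by 0.21 (SE 0.056, limma adjusted p = 0.11) in normal libraries, with no overlap between groups in either gene. Optn, a cargo receptor of damaged mitochondria, differed by 0.44 (SE 0.12, limma adjusted p = 0.12). With weights for each library Npc2 had an adjusted p of 0.0466, and without KO-labelled normal library B 1 member, Bnip3l, was called.

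In stressed libraries the largest difference relative to its error was that of Atg9a, the membrane protein that brings lipid to the growing autophagosome. It stood at 5.98 and 5.85 in WT-labelled and 5.20 and 5.41 in KO-labelled stressed libraries, against 5.93, 5.70 and 5.84 in WT-labelled and 5.42, 5.80 and 5.83 in KO-labelled normal libraries. The KO-labelled stressed pair was thus below all other libraries. The difference was -0.61 (SE 0.16, limma adjusted p = 0.30), and over both conditions -0.38 (SE 0.11, limma adjusted p = 0.15). Exons of Atg9a overlap those of Gm29253 on the same strand by 1072 bases and those of Ankzf1 on the opposite strand by 46 bases, and the level of Gm29253 was not analysed here.

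Map1lc3a, an LC3 gene, stood at 3.66, 3.69 and 3.70 in WT-labelled normal, 3.66, 3.89 and 3.90 in KO-labelled normal, 4.04 and 3.84 in WT-labelled stressed, and 3.41 and 3.39 in KO-labelled stressed libraries. The KO-labelled stressed pair was again lowest. Its difference between genotypes was -0.54 in stressed (SE 0.20, limma adjusted p = 0.46) and 0.13 (SE 0.16) in normal libraries. Map1lc3a lies 2.54 Mb from Id1 on chromosome 2 (155276297 to 155278073, mm10), the closest of the 5 members on that chromosome. Psap differed by -0.19 between the stressed genotypes (SE 0.069, limma adjusted p = 0.45).

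The median over all 43 members was lowest in the KO-labelled stressed libraries, where the autophagy genes stood lower than the lysosomal ones. After the mean of each gene was subtracted, the median member stood at -0.12 and -0.10 in KO-labelled stressed A and B, 0.01 and 0.00 in WT-labelled stressed, -0.02, -0.03 and 0.06 in WT-labelled normal, and 0.10, 0.09 and 0.05 in KO-labelled normal libraries. Over the autophagy genes alone the medians were -0.15 and -0.13 in KO-labelled and 0.04 and 0.03 in WT-labelled stressed libraries. Over the lysosomal genes they were -0.08 in both KO-labelled stressed libraries, and -0.04 and -0.08 in the WT-labelled ones. Single members had their lowest value in KO-labelled stressed A in 8 cases and B in 6, but WT-labelled normal library B also held 8. The highest value lay in KO-labelled normal library A, which stood apart, in 11 cases, against at most 6 in any other library. In the medians over all members the KO-labelled groups were at both ends, and the WT-labelled ones between them apart from WT-labelled normal library C. In stressed libraries 32 of 43 members were lower under the KO label (49.9% of all genes tested were), with a median difference of -0.09 against 0.00 over all genes. Between conditions, 35 of 43 members were below 0 in KO-labelled libraries (49.9% of all genes were), with a median of -0.20 against 0.00, and 20 of 43 in WT-labelled libraries (48.9% of all genes were), with a median of 0.01 against 0.01. The counts of 32 and 35 rest on the same 2 KO-labelled stressed libraries, and that of 35 also on the KO-labelled normal ones, library A among them.

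**Figure D4:**
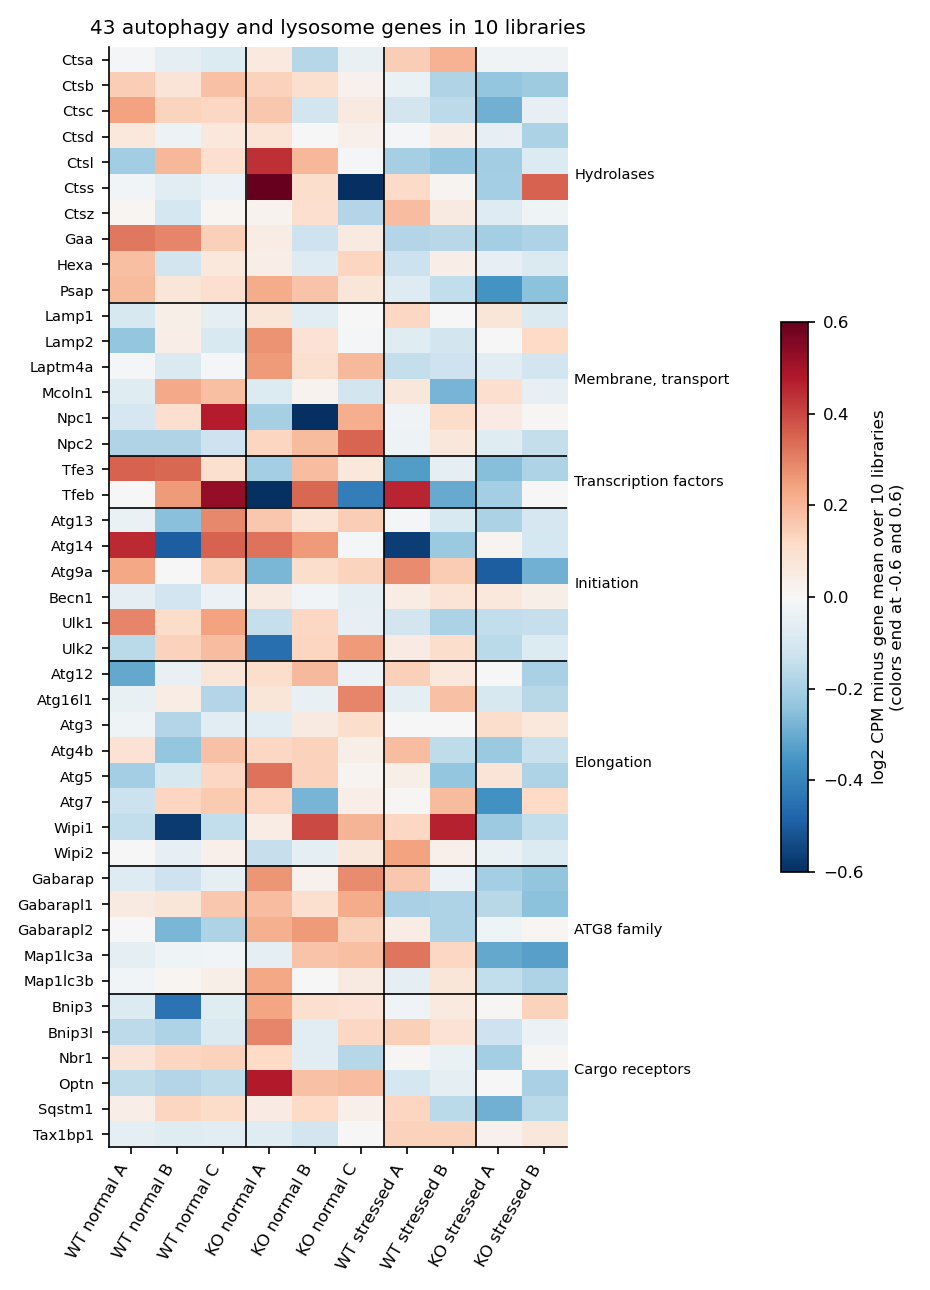
Log2 CPM of each of the 43 members (rows, by role) in each of the 10 libraries (columns, by group), shown as the deviation from the gene's mean over all libraries; colors end at -0.6 and 0.6. The KO-labelled stressed columns are mostly blue, with medians of -0.12 and -0.10, and Ctss shows the widest spread within a group.

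Whether the difference between conditions itself differed between genotypes was tested as an interaction, the KO-labelled difference minus the WT-labelled one. No member passed: 0 of 43 were called by limma (0.0198% of all genes tested were), and 10 had an unadjusted p under 0.05, 1 higher and 9 lower (9.15% of all genes did, 4.49% higher and 4.66% lower). The median interaction was -0.14, against 0.00 over all genes, and 33 of 43 members were below 0 (50.5% of all genes were). By role, all 5 ATG8 genes and all 8 elongation and conjugation genes were below 0, with medians of -0.29 and -0.23, while both transcription factor genes were above 0 (49.5% of all genes were). Leaving out WT-labelled stressed library A moved the median over the list to -0.10, and leaving out WT-labelled normal library C moved it to -0.18.

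The smallest interaction p belonged to Gabarap, at -0.56 (SE 0.14, limma adjusted p = 0.24), followed by Npc2 at -0.51 (SE 0.14, limma adjusted p = 0.29). In both genes the KO-labelled normal group had the highest mean of the 4 groups. Bnip3l, a mitophagy receptor also known as Nix that clears mitochondria from maturing red cells, came next. It stood at 7.47, 7.44 and 7.54 in WT-labelled normal, 7.92, 7.56 and 7.75 in KO-labelled normal, 7.77 and 7.71 in WT-labelled stressed, and 7.50 and 7.59 in KO-labelled stressed libraries. Stressed was above normal under the WT label, whereas under the KO label the stressed pair overlapped the lowest normal library. Its interaction was -0.46 (SE 0.13, limma adjusted p = 0.33), and its count is uncertain because of a near-identical copy, Bnip3l-ps, counted at a log2 level of 0.63 or less. Wipi1, named here for its size after the values were seen, had the most negative interaction at -0.98 (SE 0.35, limma adjusted p = 0.43), and it is also the least abundant member. For these genes no difference in response between genotypes was detected at this number of libraries.

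**Figure D5:**
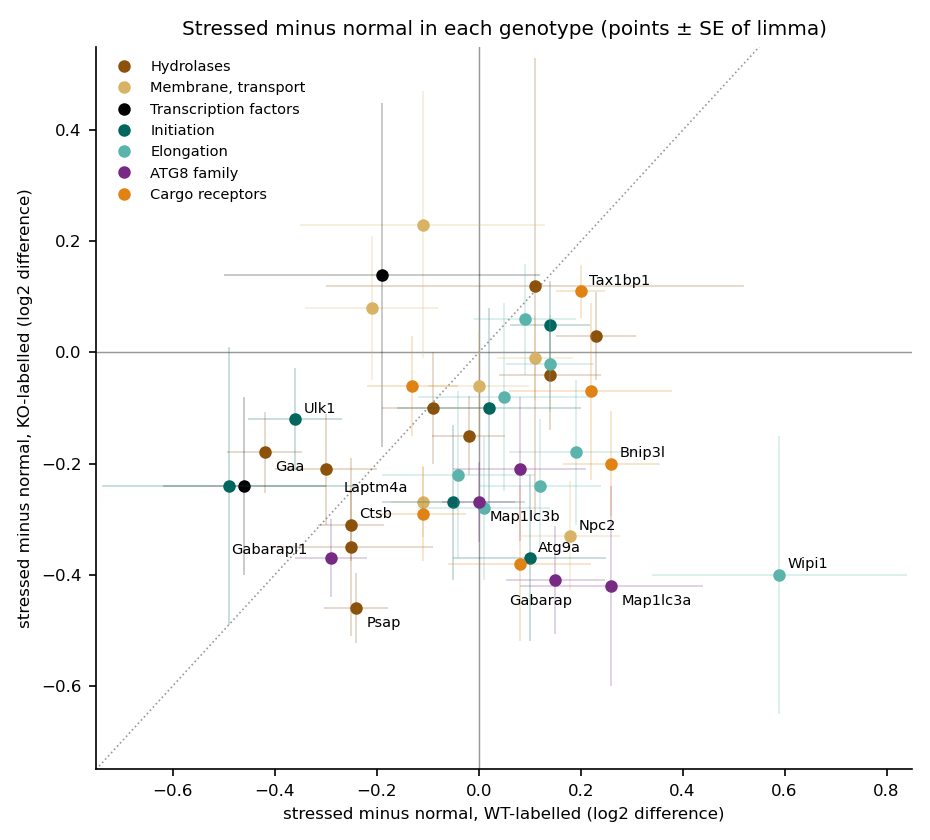
Stressed minus normal difference (log2) of each of the 43 members in WT-labelled (horizontal) and KO-labelled (vertical) libraries, with the SE of limma as thin bars and colors by role; the dotted line marks equal differences. Psap, Ctsb and Gabarapl1 lie at negative values on both axes, whereas Gabarap, Npc2, Bnip3l and Wipi1 are positive under the WT label and negative under the KO label.

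In the wider machinery the shares of genes called, higher and lower together, lay below those over all genes in each of the 4 comparisons with a call. A further 144 genes of 5 lists (proton pump subunits, other lysosomal proteins, other autophagy machinery, autophagosome fusion, and mTORC1 and TFEB regulators) gave 143 that were tested. Between genotypes in normal libraries 2 were called (1.4%, against 1.56% of all genes), both higher under the KO label: Lamtor5, a subunit of the Ragulator complex that anchors mTORC1 to lysosomes, at 0.54 (SE 0.089, limma adjusted p = 0.0096), and Atp6v1f, a subunit of the proton pump, at 0.41 (SE 0.081, limma adjusted p = 0.027). Between conditions in KO-labelled libraries 6 were called, 5 lower and 1 higher (4.2%, close to the 4.5% of all genes called, with 2.28% called lower). Lower were the pump subunits Atp6v0b at -0.61 (SE 0.091, limma adjusted p = 0.0033) and Atp6v1f at -0.37, the protease gene Ctsf at -0.66, Pik3r4, a subunit of the class III kinase complex, at -0.75, and Lamtor5 at -0.39. Gnptab, which makes the mannose 6-phosphate tag of hydrolases, was higher at 0.43 (SE 0.11, limma adjusted p = 0.0459).

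In WT-labelled libraries 1 of these 143 genes was called between conditions (0.699%, against 3.3% of all genes), the mannose 6-phosphate receptor gene Igf2r at -1.85 (SE 0.29, limma adjusted p = 0.0058). Its log2 levels were 5.38, 5.91 and 5.98 in WT-labelled normal and 4.35 and 3.47 in WT-labelled stressed libraries. In KO-labelled libraries, where Igf2r was not called, they were 4.91, 4.84 and 5.44 in normal and 4.84 and 4.31 in stressed ones. Over both genotypes 6 were called (4.2%, against 8.29% of all genes): Atp6v0b, Igf2r, Ctsf, Pik3r4 and the sialidase gene Neu1 lower, and Gnptab higher. The 16 genes of autophagosome fusion gave 0 calls by limma in every comparison, where 0.0198% to 8.29% of all genes were called. Between genotypes in stressed libraries 0 of the 143 were called by limma (0.145% of all genes were). An unadjusted p under 0.05 was found in 16 (11.2%, against 8.88% of all genes), of which 2 were higher and 14 lower (4.46% of all genes were lower).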

How the data were processed

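Values are log2 CPM per gene as deposited by the authors. Per the submitters' processing notes, Bowtie2, featureCounts and build mm10 were used (versions not given in the sources used here). The distribution of the authors' values was nearly the same in all 10 libraries, so they had been quantile normalized, which can narrow the spread of abundant genes. Sequencing depth was estimated from the steps between tied low values (10 to 100 reads), and 1 CPM corresponds to 26 to 33 reads.

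Genes above 0 in at least 2 libraries were kept, 15143 of 20270, and all 43 members passed. With limma 3.58.1 (R 4.3.3) the 4 groups were each given a mean, over all 10 libraries together, which left 6 residual degrees of freedom. Variances followed a trend over the mean level, and no replicate block was used. The procedure was tested on simulated data. Adjustment was by Benjamini-Hochberg across the genes kept, and "called" means an adjusted p under 0.05. Differences are between group means on the log2 scale, with limma's standard error (SE).

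The members, pathway lists and cell type markers were chosen with earlier results of these data known. Values of every library are given for members called in a comparison, for the 3 with the smallest p in each, and for the ATG8 family. Exonic lengths and gene coordinates (counted from 1) come from GENCODE vM21, which held 20199 of the gene identifiers, and promoter windows from RefSeq. Copies were sought with blastn 2.17.0 (at least 95% identity over 200 bases). Figures used Python 3.11.15. The alternatives changed variance moderation, low-value filters, a pseudocount of 1 CPM, centring, library weights, a length trend, a replicate block, the threshold, the libraries fitted, and each library left out in turn.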

Additional observations from a re-analysis of the deposited data

How the results depend on the processing

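Among the member differences recomputed under the alternatives (those called and the 3 with the smallest p in each comparison), none changed sign, and the calls of Psap, Gabarapl1, Ctsb and Gaa over both genotypes held in each of 21. The count of members called between conditions in WT-labelled libraries (3) was 0 without a variance trend and 0 without both libraries that stood apart (an alternative chosen after seeing the data), 1 with no filter on low values, with a pseudocount of 1 CPM and with only the groups compared, 6 at a threshold of 0.1, and 0 to 4 with 1 library left out. In KO-labelled libraries the count (5) was 1 without a variance trend and with only the groups compared, 3 without both libraries that stood apart, 8 at a threshold of 0.1, and 1 to 6 with 1 library left out. Over both genotypes (7) it was 4 without a variance trend and 4 to 8 with 1 library left out. Between genotypes in normal libraries (0) it was 1 with library weights, 2 at a threshold of 0.1, and 0 to 1 with 1 library left out. With a replicate block for the letters A, B and C, 1 member was called in WT-labelled libraries (Gaa), 2 in KO-labelled libraries (Psap, Gabarapl1) and 5 over both genotypes. The cause of these changes in count was not tested. Over 2000 genes, deviations from the group mean correlated at -0.059 to 0.126 in same-lettered libraries and at -0.126 to 0.054 in the others. In groups of 2 libraries the deviations of A and B mirror each other, so whether letters pair the libraries cannot be decided here. Values without quantile normalization were not analysed here.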
